A study of Homo sapiens with 12 samples.

Results

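The ZNF genes are the largest set of human genes named for the zinc finger, a short protein loop held in shape by a zinc ion. Ribosome footprints were counted over their coding sequences in HEK293T and H9 cells. Members were taken by name and level: gene symbols made of ZNF and a number, with a mean of at least 10 footprint counts per 1000000 coding reads (CPM) over the 8 HEK293T libraries. Of 499 ZNF genes among the 19305 coding sequences counted, 232 met this rule and 267 did not, while 8247 genes of other names lay at the same level or above. The HEK293T level therefore chose the members. Their levels, and their levels in H9 against HEK293T, are given as descriptions with no test.

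Ribosome profiling sequences the mRNA stretches that ribosomes protect from nuclease, so a footprint count follows both the amount of an mRNA and how heavily it is translated. The 8 HEK293T libraries, from a human embryonic kidney line, were all exposed to sodium arsenite, an oxidative stressor. They carried a control siRNA or an siRNA against eIF2A, an initiation factor that can bring initiator tRNA to the ribosome, and mRNAs were immunoprecipitated (IP) with CBP80 or with eIF4E, the nuclear and the cytoplasmic cap-binding protein. The 4 H9 libraries, from a human embryonic stem cell line, carried a control or an eIF2A shRNA and had no IP and no arsenite label. Each of the 6 groups held 1 library of set 1 and 1 of set 2. Nothing in the labels tells whether a set was its own culture, so a p-value here reflects only how far the libraries scatter, possibly for technical reasons.

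Most ZNF proteins are C2H2 zinc finger proteins, in which a tandem array of fingers reads DNA sequence. The largest class adds a KRAB domain, which recruits the corepressor TRIM28 (KAP1) and through it the histone methyltransferase SETDB1 and HP1 proteins, and silences transposable elements in embryonic and other cells. KRAB zinc finger genes arose by repeated local duplication and lie in clusters, many of them on chromosome 19. Other ZNF proteins share only the name and act on RNA, on the ribosome or in mitosis.

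The HEK293T libraries held 4331459 to 5775177 coding reads and the H9 libraries 937990 to 1878700. In HEK293T, the CBP80- and eIF4E-labelled libraries of the same siRNA and set differed little more than counting noise allows, with a chi-square per degree of freedom of 1.01 to 1.03 over all genes and 0.915 to 1.18 over the ZNF members. The sets of one HEK293T group differed by 3.95 to 5.52 over all genes and 1.96 to 2.39 over the members. Each such pair of IP libraries was therefore summed and counted once, which left 2 libraries per siRNA label. EIF2A, the targeted gene, stood at 83.2 and 83.5 CPM in the control libraries of sets 1 and 2 and at 96.0 and 46.7 CPM in the libraries labelled eIF2A siRNA. It was thus lower than control in set 2 and higher in set 1, so the conditions are named below by their labels only. Of uniquely placed reads, 40.0 and 35.2% lay outside coding sequences in the control libraries of sets 1 and 2, against 51.1 and 42.3% in those labelled eIF2A siRNA. This share moved with the siRNA label, and its part in the results below was not tested. Of 9 pluripotency markers counted, 8 had reads in H9, with a sum of 4951 to 5268 CPM against 57.5 to 70.9 CPM in HEK293T. POU5F1, a defining marker of pluripotent cells, was at 0 in every library of both lines. Reads without a unique placement were not counted, so this 0 need not mean that POU5F1 was untranslated, and its cause was not tested. The 5 fibroblast markers summed to 261 to 434 CPM in H9 and 17.3 to 22.4 CPM in HEK293T, with LUM and DCN at 0 in H9 and COL1A1 and COL1A2 carrying the sum. Summed markers of endoderm, mesoderm and nerve cells stayed at or below 7.98 CPM in H9. The part of the fibroblast signal in the H9 values was not tested.

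Footprints over the 232 members were sparse. Their mean CPM had a median of 23.1, with quartiles of 15.2 and 42.8, against a median of 44.2 for the other genes at 10 CPM or more. At 50 CPM or more there were 44 members, and at 100 CPM or more 12. ZNF207, which binds microtubules and the checkpoint protein BUB3 in mitosis, was highest at 548.1 CPM, followed by ZNF638, a nucleic acid-binding nuclear protein, at 453.9 CPM. These 2 genes held 11.2% of all member reads. Next came ZNF326, which acts in coupling transcription to splicing, at 172.3 CPM, and ZNF24 at 172.0 CPM. They were followed by ZNF644, a partner of the histone methyltransferase G9a, at 165.4 CPM and ZNF330 at 164.9 CPM. CPM is not corrected for gene length, so this order ranks footprint counts and not ribosome density. Just inside the threshold lay ZNF425 at 10.2 CPM and ZNF33B and ZNF829 at 10.1 CPM each, and just outside it ZNF532 at 9.73, ZNF496 at 9.69 and ZNF48 at 9.67 CPM.

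The members took 0.871% of coding reads in the control siRNA library of set 1 (95% Wilson interval 0.865 to 0.876) and 0.844% in set 2 (0.838 to 0.850). In the libraries labelled eIF2A siRNA they took 0.945% (0.939 to 0.951) and 0.921% (0.915 to 0.927). In H9 the same genes took 0.661 to 0.672% in the 4 libraries. Both libraries labelled eIF2A siRNA thus lay above both HEK293T controls, on a scale of total reads that also lifts the median of all genes by 0.09 in log2 relative to TMM scaling. All H9 libraries lay below every HEK293T library, but the members were chosen by their HEK293T level. Taken without a level, all 499 ZNF genes held 0.955 and 0.924% in the HEK293T controls of sets 1 and 2. In H9 they held 0.817 to 0.827%, a smaller gap. The intervals given above, and those of ratios below, cover counting error only.

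Many ZNF genes neighbour each other. In RefSeq's gene order, 234 of the 499 counted ZNF genes lay in 27 runs of at least 4 ZNF genes with no other protein-coding gene between them, and 95 of the 232 members belonged to such runs while 137 did not. The run from ZNF283 to ZNF180 on chromosome 19 held the largest number of members, 13 of its 20 genes, while in the ZNF786 to ZNF746 run all 8 genes were members. RefSeq promoter windows, from 250 bases before to 50 bases after the first listed start of each gene, matched 204 of the 232 members. Their median number of CG pairs was 22 in 300 bases, against 27 for other genes at 10 CPM or more and 14 over all 27305 promoters.

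Within the ZNF283 to ZNF180 run, some promoters carried a near-repeated element. The run was picked because it held the most members. Over members alone, it also had the lowest median ratio of H9 to HEK293T among runs with at least 3 of them. The windows printed belong to only part of its 13 members, named without a rule, and do not show what the others hold. They are the 100 bases before the start, from RefSeq on GRCh38.p14, 5′ to 3′ on each gene's own strand, and capitals mark a match to ACTACANTTCCCAG on either strand, a motif known as a binding element of ZNF143 and read here from the ZNF284 window with its seventh base left free.
ZNF45, chr19:43935283-43935382, minus strand: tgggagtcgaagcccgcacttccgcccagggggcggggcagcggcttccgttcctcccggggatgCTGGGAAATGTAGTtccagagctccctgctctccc
ZNF284, chr19:44072059-44072158, plus strand: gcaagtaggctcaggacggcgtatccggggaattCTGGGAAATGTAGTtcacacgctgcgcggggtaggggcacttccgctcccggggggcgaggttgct
ZNF224, chr19:44094261-44094360, plus strand: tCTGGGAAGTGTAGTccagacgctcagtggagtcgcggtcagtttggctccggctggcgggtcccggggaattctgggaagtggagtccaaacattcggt
ZNF225, chr19:44113299-44113398, plus strand: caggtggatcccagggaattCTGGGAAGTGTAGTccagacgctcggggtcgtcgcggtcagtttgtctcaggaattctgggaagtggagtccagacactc
ZNF226, chr19:44165000-44165099, plus strand: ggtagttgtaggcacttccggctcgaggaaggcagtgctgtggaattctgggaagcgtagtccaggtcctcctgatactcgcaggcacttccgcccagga
ZNF227, chr19:44212432-44212531, plus strand: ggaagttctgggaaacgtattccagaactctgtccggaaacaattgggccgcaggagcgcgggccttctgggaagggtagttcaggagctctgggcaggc

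The windows of ZNF226 and ZNF227 held no exact match, and all 6 genes had footprints in HEK293T. The motif was chosen after these windows had been read. Over the full 300 bases and both strands, ACTACANTTCCCAG stood in 15 of 204 member promoters (7.35%) and in 9 of 86 of those in neighbour runs (10.5%). It stood in 16 of 219 promoters of ZNF genes under 10 CPM (7.31%), in 71 of 6918 of other genes at 10 CPM or more (1.03%) and in 0.557% of all promoters. Its share was thus alike in ZNF genes above and below the level threshold. CCGGAAGT, the ETS core, stood in 21.6% of member promoters, 14.2% of those of ZNF genes under 10 CPM, 10.6% of those of other genes at that level and 4.44% of all. GCATGCGC (NRF1 type) stood in 5.39% of member promoters, 6.50% of those of other genes and 3.27% of all, and AGATGGCG (YY1 type) in 4.90, 5.94 and 2.44%. Matches to different motifs were counted separately, also where they overlapped, and a match describes the sequence only.

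The first comparison asks how footprints over ZNF genes differed between the siRNA labels in HEK293T. Of the 232 members, all tested, 7 rose and 7 fell in the libraries labelled eIF2A siRNA at an adjusted p under 0.05 in edgeR's quasi-likelihood test. Over all genes 12.4% passed (1534 of 12331), 6.15% rising and 6.29% falling, so the members' count lay below the background. The members' log2 changes ranged from -0.71 to 0.58 with a median of 0.01, against a median of 0.00 over all genes. Their median size regardless of sign was 0.16 on the log2 scale, with a median standard error of 0.16, while all genes had a median size of 0.22 and the same median error. At an unadjusted p under 0.05 there were 34 of the 232 members, against 3319 of 12331 genes in all.

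The count rested on single libraries. With edgeR on 3 libraries, where the lone library is assumed to vary like the other label's pair, it was 19 without eIF2A set 2 (16.5% of all genes), 9 without control set 1 (7.78%), 2 without eIF2A set 1 (2.28% of all genes) and 0 without control set 2 (0.588%), where 9 members had an unadjusted p under 0.05. With all 8 libraries in the fit, 2 members passed in the CBP80-labelled libraries, against 4.02% of all genes, 1 rising (1.55%) and 1 falling (2.47%). In the eIF4E-labelled ones 3 passed, against 3.25% of all genes, 2 rising (1.25%) and 1 falling (2%). DESeq2, with 157 members given an adjusted p, called 2 (9.61% of all genes), and edgeR with the set as a block called 36 (24.3%).

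**Figure D1:**
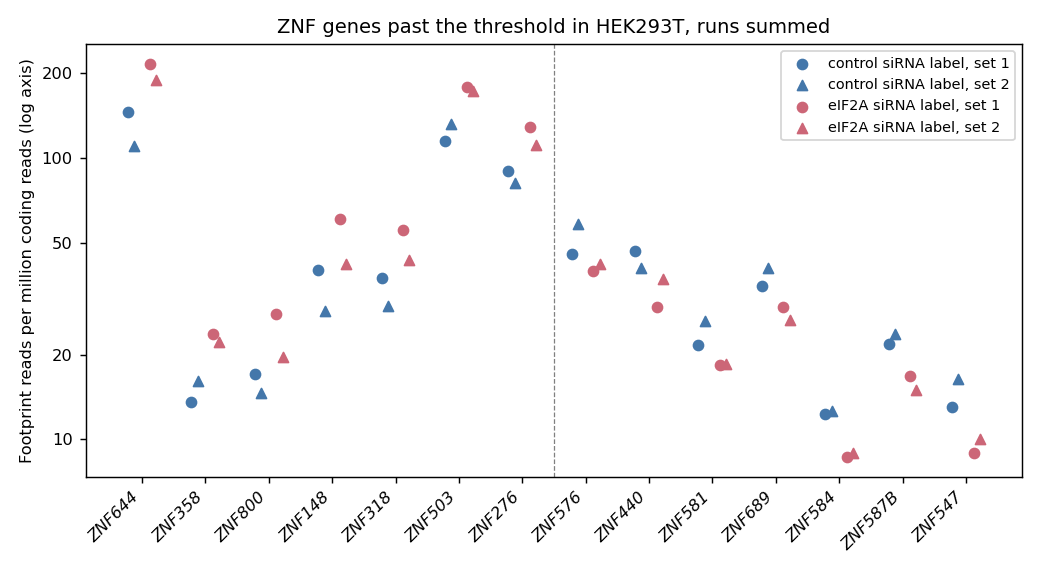
Footprint CPM (log axis) of the 14 ZNF genes past the threshold between siRNA labels in HEK293T, with the IP libraries of each label and set summed; circles are set 1, triangles set 2, blue control and red eIF2A siRNA label. Left of the dashed line both red points lie above both blue points, as for ZNF644 (145 and 111 against 217 and 189 CPM), and right of it both lie below.

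Among the rising genes, ZNF644 had the largest change, and it had the most footprints of the 14 genes. Its CPM was 145 and 111 in the control libraries of sets 1 and 2 and 217 and 189 in those labelled eIF2A siRNA. The mean rose from 128 ± 24.5 to 203 ± 19.2 (SD, n = 2 each), a log2 change of 0.58 ± 0.14 (SE, edgeR adjusted p = 0.00249), and the labels did not overlap in any of the 8 single libraries. Here and below, the single libraries are not separate evidence. The IP libraries of one siRNA and set differed little more than counting noise, and the genes passed on the same counts. The share of all genes that separate in this way is not given here. Of the 14 genes, ZNF644 passed in 11 of 12 alternative settings, the exception being the fit without control set 2.

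ZNF148, a GC-box-binding transcription factor, read 40.2 and 28.6 CPM in the controls and 60.5 and 42.1 CPM under the eIF2A label (log2 change 0.48 ± 0.15, edgeR adjusted p = 0.0263). The summed libraries did not overlap, but in the single IP libraries the labels did, set 1 being the higher set under both labels. ZNF503, a developmental transcriptional repressor, read 115 and 132 CPM against 179 and 173 CPM, a log2 change of 0.42 ± 0.14 (edgeR adjusted p = 0.0268). Both of its eIF2A-labelled libraries stood above both controls, and the 2 libraries of each label lay closer to each other than those of ZNF148.

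ZNF276 read 89.9 and 81.4 CPM in the controls and 128 and 112 CPM under the eIF2A label, and ZNF318, a nuclear factor known from immunoglobulin splicing, read 37.6 and 29.8 against 55.6 and 43.5 CPM. Their log2 changes were 0.40 ± 0.13 and 0.46 ± 0.15 (edgeR adjusted p = 0.0382 and 0.0272). The remaining risers had fewer footprints. ZNF358 went from 13.5 and 16.1 to 23.7 and 22.3 CPM (0.55 ± 0.17, adjusted p = 0.0232 in edgeR). ZNF800 went from 17.1 and 14.6 to 27.8 and 19.7 CPM (0.48 ± 0.17, adjusted p = 0.0481 in edgeR).

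Among the falling genes, ZNF547, a KRAB zinc finger gene, changed most: 13.0 and 16.4 CPM in the controls and 8.97 and 10.1 CPM under the eIF2A label, a log2 change of -0.71 ± 0.19 (edgeR adjusted p = 0.00821). The KRAB zinc finger gene ZNF587B read 21.9 and 23.8 CPM against 16.8 and 15 CPM (-0.61 ± 0.17, edgeR adjusted p = 0.00996). In both genes every single library of the eIF2A label lay below every control.

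ZNF584, also a KRAB gene, read 12.3 and 12.6 CPM in the controls and 8.66 and 8.98 CPM under the eIF2A label (-0.58 ± 0.20, edgeR adjusted p = 0.0348). ZNF689 read 35.1 and 40.6 against 29.4 and 26.6 CPM (-0.52 ± 0.15, edgeR adjusted p = 0.0132). ZNF581 read 21.7 and 26.4 against 18.3 and 18.5 CPM (-0.47 ± 0.17, edgeR adjusted p = 0.0484). For these genes too the labels did not overlap in the single libraries.

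In the KRAB gene ZNF440 the fall came mostly from set 1, at 46.8 CPM in the control and 29.6 CPM under the eIF2A label, while set 2 read 40.6 and 37.3 CPM (-0.47 ± 0.15, edgeR adjusted p = 0.0266). In ZNF576 it came mostly from set 2, at 58.1 and 42.2 CPM, while set 1 read 45.4 and 39.6 CPM (-0.42 ± 0.15, edgeR adjusted p = 0.0414), and its single libraries overlapped. Scaled by total coding reads alone, 6 members passed (8.37% of all genes), of which 6 rose (6% of all genes) and none fell (2.37% of all genes), with 8 members lower at an unadjusted p under 0.05. That scaling shifted the median of all genes by 0.09 on the log2 scale, and all 7 genes that fell above still had log2 changes below 0 under it, from -0.62 for ZNF547 to -0.34 for ZNF576 (edgeR adjusted p from 0.0593 to 0.167).

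By position, 6 of the 7 falling genes (ZNF440, ZNF581, ZNF584, ZNF587B, ZNF547 and ZNF689) lay among the 95 members in neighbour runs and none of the rising genes did. Of the 137 members outside runs, 7 rose and ZNF576 alone fell. The median log2 change was 0.00 in runs and 0.03 outside, against 0.00 over all genes, and over all genes 6.15% rose and 6.29% fell, so falls in runs and rises outside were near the background. Whether the changes differ by position was not tested. Each of the 6 genes lay in a different run. Of the ZNF genes under 10 CPM, 172 were tested and 4 passed, against 12.4% of all genes. Of the 4, ZNF117 and ZNF780B rose, and ZNF599 and ZNF580 fell, all with fewer than 8 CPM in every summed library. ZNF580 is the next gene after ZNF581 in the ZNF524 to ZNF580 run, and both fell.

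Within each set, where 1 library stands against 1 and there is no test, 161 of 232 members (69.4%) changed in the same direction in both sets by CPM, against 76.6% of the other genes at 10 CPM or more. Of these members 108 were higher and 53 lower under the eIF2A label. With library sizes scaled by TMM the numbers were 146 (62.9% against 76.9%), with 67 higher and 79 lower, so the number of shared rises depends on the scaling. Across the 232 members, the set 1 and set 2 changes correlated at r = 0.57, against 0.74 across the other genes, which are more deeply covered; genes of one library share its depth and are not independent. ZNF136 shows a split: its ratio of eIF2A label to control was 0.886 (95% interval 0.728 to 1.08) in set 1 and 1.40 (1.15 to 1.71) in set 2. For ZNF644 the ratios were 1.49 (1.40 to 1.59) and 1.71 (1.59 to 1.85). ZNF440 had 0.632 (0.546 to 0.730) in set 1 and 0.917 (0.796 to 1.06) in set 2.

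**Figure D2:**
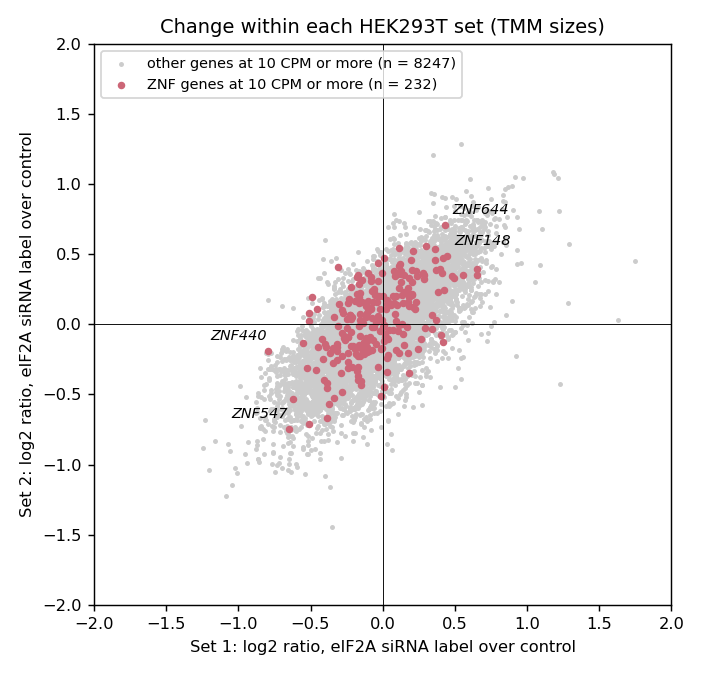
Log2 ratio of eIF2A siRNA label to control in set 1 (horizontal) and set 2 (vertical), 1 summed library against 1, with TMM-scaled library sizes; red points are the 232 ZNF members and grey points the 8247 other genes at 10 CPM or more. The members lie inside the cloud of other genes, with r = 0.57 against 0.74, and ZNF440 lies closer to 0 in set 2 than in set 1.

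Between the sets themselves, with the siRNA label in the fit, 1 member differed, ZNF148, which was lower in set 2 by a log2 change of -0.44 ± 0.10 (edgeR adjusted p = 0.0438). Over all genes 0.811% passed (100 of 12331).

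Members of known role outside DNA binding were taken from a list of 9. These act on the ribosome, RNA or in mitosis, except that ZNF706 was listed as a short protein. None of the 9 passed in edgeR. Of the 9, 2 had an unadjusted p under 0.05, against 3319 of 12331 genes in all. The median log2 change of the 9 was 0.16, against 0.00 over all genes. ZNF598, the ubiquitin ligase that marks collided ribosomes, read 76.0 and 77.4 CPM in the controls and 103 and 79.6 CPM under the eIF2A label, so the 2 libraries of set 1 stood further apart than those of set 2 (log2 change 0.16 ± 0.14, edgeR adjusted p = 0.486). ZNF622, a factor of large ribosomal subunit maturation, read 138 and 142 against 151 and 144 CPM. ZNF593, which acts in the same process, read 52.6 and 61.7 against 59.4 and 55.3 CPM, with both labels overlapping. ZNF706, a short protein, read 23.6 and 26.2 against 29.6 and 30.1 CPM, which did not overlap and did not pass (edgeR adjusted p = 0.497).

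ZNF207 read 553 and 533 CPM in the controls and 522 and 586 CPM under the eIF2A label, an overlap with no common direction. ZNF638 read 415 and 369 against 527 and 505 CPM (0.31 ± 0.14, edgeR adjusted p = 0.13). The RNA-binding ZNF106 read 47.8 and 34.7 against 64.4 and 46.6 CPM (0.33 ± 0.15, edgeR adjusted p = 0.131). These were the 2 genes of the list with an unadjusted p under 0.05, and ZNF326 and the double-stranded RNA-binding ZNF346 had log2 changes of 0.22 and -0.16.

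Of 11 genes listed as transcription or chromatin regulators, all members but ZNF532, 2 rose, ZNF644 and ZNF148, and none fell. Over all genes 6.15% rose and 6.29% fell. The median log2 change of the listed genes was 0.18. ZNF410, an activator of the remodeller gene CHD4, read 54.4 and 55.2 CPM in the controls and 68.0 and 69.2 CPM under the eIF2A label (0.24 ± 0.14, edgeR adjusted p = 0.266). ZNF143, ZNF281, ZNF217, ZNF24 and ZNF384 had log2 changes of 0.12, 0.21, 0.25, 0.10 and 0.18, none past the threshold. ZNF687 and ZNF592, which bind the chromatin reader ZMYND8, had changes of -0.07 and 0.07.

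Genes through which ZNF proteins act were read against the same background, 12.4% of all genes. Of 22 KRAB corepressor genes, the TRIM28, SETDB1, HP1 and NuRD components and DNA methylation factors, 1 rose and none fell in edgeR. Their median log2 change was 0.02, and 6 had an unadjusted p under 0.05, against 3319 of 12331 genes in all. The riser was MBD2, a methyl-CpG binder, at 30.2 and 26.5 CPM in the controls and 42.6 and 39.4 CPM under the eIF2A label (0.44 ± 0.15, adjusted p = 0.0369). TRIM28 itself read 418 and 446 against 437 and 391 CPM, with the labels overlapping (edgeR adjusted p = 0.513). None of the 4 HUSH silencing genes passed, TASOR having the smallest p (0.39 ± 0.14, edgeR adjusted p = 0.0541). None of the 3 tested genes of the ZMYND8 and G9a list passed, and none of them had an unadjusted p under 0.05. EHMT2, the gene of G9a, was at 0 in all 12 libraries, which, as for POU5F1, need not mean that it was untranslated. Of 13 genes that act with ZNF598 on collided ribosomes, EDF1, which binds such ribosomes, fell from 228 and 304 to 180.1 and 222 CPM (-0.49 ± 0.14, edgeR adjusted p = 0.0149), with little room between the labels, and none rose.

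Among C2H2 families of other names, counts lay around the background of 12.4% of all genes. Of 36 tested ZBTB genes 3 rose, the repressor gene ZBTB18 (0.68 ± 0.15), ZBTB1 (0.60 ± 0.17) and ZBTB44 (0.57 ± 0.19), and ZBTB48, a telomere-binding factor, fell (-0.43 ± 0.15). ZSCAN29 rose among 16 ZSCAN genes, ZKSCAN5 among 6 ZKSCAN genes and ZFP91, a ubiquitin ligase, among 15 ZFP genes. KLF6, a Krüppel-like factor, fell among 13 KLF genes.

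The IP labels compare mRNAs held by eIF4E with those held by CBP80. None of the 232 members passed in edgeR over 8 libraries, where 0% of 11778 genes did, and no member but 99 genes in all had an unadjusted p under 0.05. DESeq2 gave 1 gene in all and no member. The members' log2 differences, eIF4E label minus CBP80 label, ran from -0.24 to 0.35 with a median of -0.01 and a median standard error of 0.12. That error, like the one of the interaction below, holds the scatter between sets as well as counting error. With siRNA label and set as a block, 6 of 11778 genes passed in edgeR, none of them a member. In that fit 6 members and 564 genes in all had an unadjusted p under 0.05. ZNF652 had the smallest p, with CBP80-labelled libraries at 10.4 and 7.35 CPM and eIF4E-labelled ones at 14.6 and 10.9 CPM in the controls, and 17.8 and 11 against 19.2 and 13.3 CPM under the eIF2A label. The eIF4E-labelled library was the higher in all 4 pairs, by 0.35 ± 0.18 on the log2 scale (edgeR adjusted p = 1). ZNF589 differed by 0.15 ± 0.08 and ZNF449 by 0.22 ± 0.13, both also higher in the eIF4E-labelled library of each pair. These genes were picked by p on the same counts, so a shared sign over the pairs is not separate evidence. The share of all genes with such a shared sign is not given here. Whether the siRNA difference itself differed between IP labels was tested as an interaction, which no member and 0% of 11778 genes passed in edgeR, with 1 member, ZNF197, and 96 genes in all at an unadjusted p under 0.05. In ZNF197 the eIF2A-labelled libraries stood above control in the CBP80 libraries, at 19.9 and 13.1 against 10 and 9.29 CPM. In the eIF4E libraries they read 14.5 and 10.9 against 14.1 and 13.4 CPM (interaction -0.88 ± 0.31, edgeR adjusted p = 1).

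In H9, 188 of the 232 members had enough reads to be tested between shRNA labels. None passed in edgeR or DESeq2, as 0% of 9751 genes did in edgeR, and no member but 84 genes in all had an unadjusted p under 0.05 there. EIF2A was not lower under the eIF2A shRNA label, at 103 and 60.9 CPM in the controls and 110.2 and 68.2 CPM. The shRNA labels of one H9 set differed by a chi-square per degree of freedom of 1.04 to 1.07 over all genes and 0.832 to 1.20 over the members. The median standard error of a member's log2 change was 0.31, against 0.16 in HEK293T, and it holds the scatter between the H9 sets, whose chi-square per degree of freedom was 2.75 to 3.13 over all genes, as well as counting error. Of the other genes at 10 CPM or more, 0 of 7601 passed in edgeR and 51 had an unadjusted p under 0.05. ZNF101 had the smallest p, at 26.6 and 23.8 CPM in the controls and 35.1 and 39.4 CPM under the eIF2A shRNA label (0.55 ± 0.24, edgeR adjusted p = 1). ZNF778 read 10.8 and 6.62 against 15.4 and 13.9 CPM, and ZNF592 read 24.1 and 28.5 against 18.6 and 16.0 CPM. In these genes the labels did not overlap. They were picked by p on the same counts, so this is not separate evidence. The share of all genes that separate in this way is not given here.

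ZNF644, the leading riser of HEK293T, read 121 and 118 CPM in the H9 controls and 109 and 115 CPM under the eIF2A shRNA label, a log2 change of -0.10 ± 0.15 (edgeR adjusted p = 1). ZNF148 read 12 and 11.9 against 15.4 and 17.1 CPM, with both eIF2A-labelled libraries above the controls as in HEK293T (0.42 ± 0.31, edgeR adjusted p = 1). ZNF576, which fell in HEK293T, read 13.3 and 11.9 against 17 and 14.9 CPM (0.36 ± 0.31, edgeR adjusted p = 1). Whether changes differed between the cell lines was not tested, since the lines also differ in arsenite, IP and kind of RNAi.

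The cell lines themselves were compared in the control libraries, as a description, because the HEK293T level chose the members and a gene chosen for being high in one line tends to be lower in another. Cell line, arsenite, IP and RNAi kind differ together here and cannot be told apart. On the log2 scale with a pseudocount of 0.5 CPM, 87 of 232 members (37.5%) were over 2-fold lower in H9 and 19 (8.19%) over 2-fold higher, with a median of -0.64. All 8479 genes at 10 CPM or more, chosen by the same level, were lower in 24.8% and higher in 16.8%, with a median of -0.13. Counted the other way, 195 ZNF genes reached a mean of 10 CPM in H9, of which 151 did so in both lines and 44 in H9 alone, while 81 did so in HEK293T alone.

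**Figure D3:**
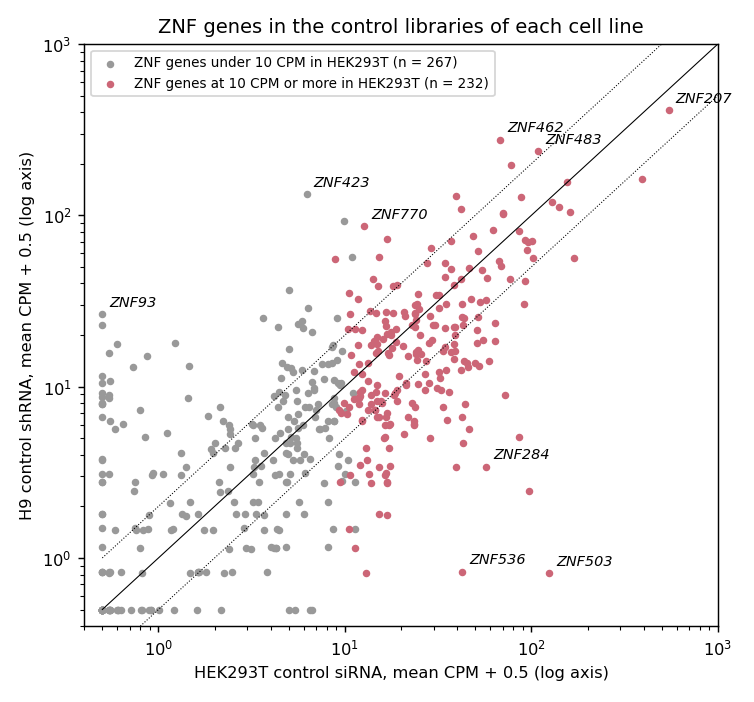
Mean CPM + 0.5 of each ZNF gene in the HEK293T control siRNA libraries (horizontal) and H9 control shRNA libraries (vertical), both axes log; red points are the 232 members, grey points the 267 other ZNF genes, the solid line marks equal levels and the dotted lines 2-fold. 87 red points lie below the lower dotted line, ZNF503 farthest, and 19 above the upper one.

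The lowest member in H9 was ZNF503, at 115 and 132 CPM in the HEK293T controls and 0.634 and 0 CPM in the H9 controls, the former a single read. It was 379-fold lower with a 95% counting interval of 68 to 14976, and both eIF2A shRNA libraries held no read. ZNF703, its closest relative, read 90.5 and 104 CPM in HEK293T and 0.634 and 3.31 CPM in H9, 49.7-fold lower (22.8 to 136). ZNF536, a repressor of neuronal differentiation, read 42.6 and 41.7 CPM against 0 and 0.662 CPM. ZNF276, ZNF284 and ZNF584 followed, at 19.0-fold (11.3 to 34.8), 19.6-fold (10.3 to 42.9) and 38.5-fold (6.84 to 1525) lower, the order being that of the log2 scale with pseudocount.

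The 6 highest members in H9 relative to HEK293T were led by ZNF770, at 13.9 and 10.3 CPM in HEK293T and 74.8 and 96.6 CPM in H9, 6.97-fold higher (5.85 to 8.31). ZNF398, a KRAB gene known for a role in human pluripotency, read 9.23 and 7.47 CPM against 52.6 and 57.6 CPM, 6.53-fold higher (5.26 to 8.11). ZNF609 read 18.3 and 14.3 against 66.6 and 78.1 CPM. ZNF462, a chromatin factor of embryonic development, read 70.9 and 64.6 against 283 and 270.0 CPM, 4.07-fold higher (3.73 to 4.43). ZNF358 and ZNF511 were 3.85-fold (3.18 to 4.65) and 3.48-fold (2.73 to 4.41) higher.

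Among the listed regulators, ZNF217, an oncogenic corepressor partner, was 3.32-fold (2.94 to 3.74) and ZNF281, a regulator of pluripotent cells, 2.56-fold (2.32 to 2.81) higher in H9. ZNF148 was 2.91-fold (2.09 to 4.17) and ZNF410 3.02-fold (2.31 to 4.02) lower. Of the RNA and ribosome members ZNF638 was 2.43-fold (2.22 to 2.66) lower and ZNF106 was 2.59-fold (2.28 to 2.94) higher, while ZNF207 at 366 and 451 CPM and ZNF598 at 39.3 and 45 CPM lay within 2-fold of HEK293T. TRIM28, the KRAB corepressor, read 2254 and 2355 CPM in the H9 controls against 418 and 446 CPM in HEK293T. Its list was mixed: 4 of 22 genes were over 2-fold higher in H9 (TRIM28, CBX1, HDAC2 and MTA3) and 5 over 2-fold lower (SETDB1, HDAC1, CHD3, GATAD2B and MBD2).

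By position, 45 of 95 members in neighbour runs (47.4%) were over 2-fold lower in H9 and 3 (3.16%) higher, with a median log2 ratio of -0.98. Outside the runs 42 of 137 (30.7%) were lower and 16 (11.7%) higher, with a median of -0.44. Over all 8479 genes at 10 CPM or more, 24.8% were lower and 16.8% higher, with a median of -0.13. These counts hold only members, chosen by their HEK293T level. Genes of the runs under 10 CPM in HEK293T went both ways, with log2 ratios such as -3.74 for ZNF568 and 5.72 for ZNF93. In the ZNF283 to ZNF180 run, 12 of 13 members were over 2-fold lower, with a median log2 ratio of -2.61 over members, which a high HEK293T level chose, and their sum was 408 and 393 CPM in the HEK293T controls against 69.7 and 56.2 CPM in the H9 controls. Of the run's 7 genes under 10 CPM in HEK293T, ZNF404 was lower in H9 (log2 ratio -1.90), ZNF285 higher (1.32), and ZNF235, ZNF112, ZNF180, ZNF229 and ZNF233 lay between -0.47 and 0.40. Among members only ZNF45, at 13.1 and 10.5 against 6.97 and 4.63 CPM, stood less than 2-fold apart on that scale. ZNF284 read 58.8 and 54.9 against 3.17 and 2.65 CPM, and ZNF226, the highest of the run in HEK293T, read 68.1 and 74.9 against 6.34 and 10.6 CPM. In the promoter windows printed above, ZNF45 and ZNF284, with the smallest and the largest difference among the 13 members, both held the ZNF143-type element, while ZNF226 and ZNF227 did not. The motif was read from the ZNF284 window, and the windows of the remaining members are not shown. Whether the element goes with the H9 to HEK293T ratio was not tested. None of the 13 members changed between siRNA labels, their log2 changes running from -0.25 to 0.11.

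Runs differed among themselves. In the ZNF577 to ZNF836 run 5 of 8 members were over 2-fold lower in H9, while ZNF649 stood at 27.1 CPM in HEK293T and 52.4 CPM in H9. In the ZNF566 to ZNF793 run 5 of 6 members were lower, ZNF875 being the exception. In the ZNF786 to ZNF746 run all 8 genes were members, and 6 of them lay within 2-fold, with ZNF398 higher and ZNF212 lower (50.8 against 21.0 CPM). In the ZNF101 to ZNF486 run the members ZNF101 and ZNF14 differed little, while 6 neighbours at under 0.5 CPM in both HEK293T controls had H9 footprints. One of them, ZNF93, a repressor of L1 retrotransposons, had no HEK293T control read and 24.7 and 27.1 CPM in H9, at least 180-fold higher against a floor of 3 counts over the HEK293T group. ZNF844, in another run, was likewise at 0 in the HEK293T controls and at 20.3 and 24.5 CPM in H9.

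**Figure D4:**
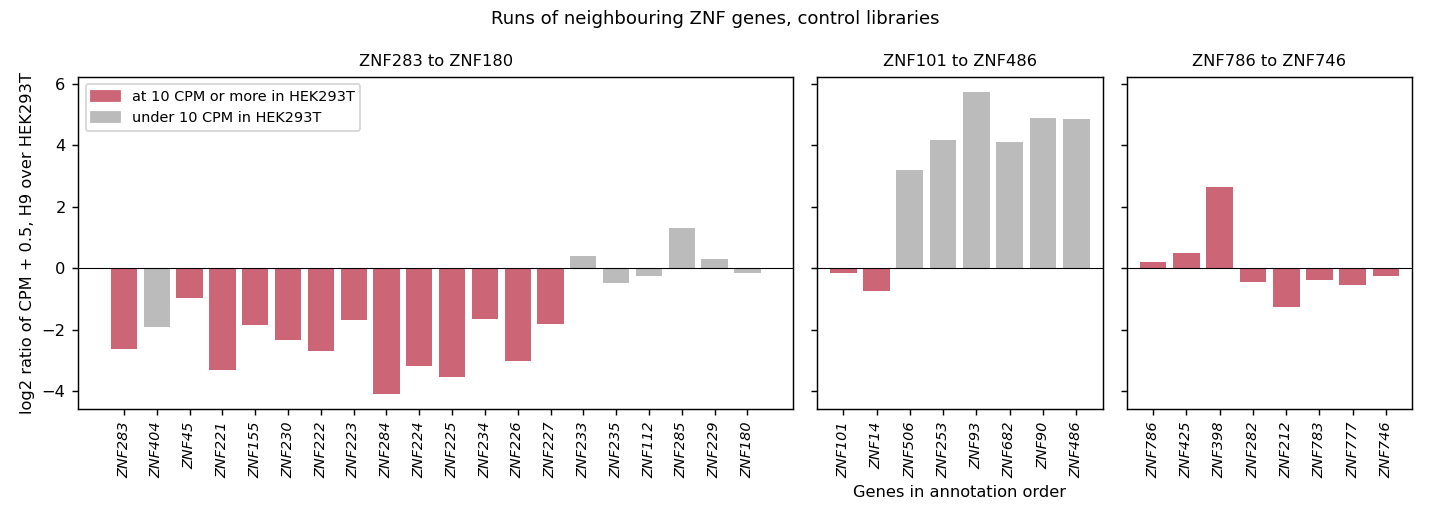
Log2 ratio of H9 to HEK293T control CPM (pseudocount 0.5) for genes in 3 runs of neighbouring ZNF genes, in annotation order; red bars are members and grey bars ZNF genes under 10 CPM in HEK293T. The members of the ZNF283 to ZNF180 run lie between -4.07 and -0.97, whereas in the ZNF786 to ZNF746 run ZNF398 reaches 2.65.

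Between the H9 sets, with both shRNA labels of a set summed, 198 members had at least 30 reads. None was over 2-fold lower in set 2 and 1 was over 2-fold higher, against 0.933% and 0.416% of 7928 genes at 10 CPM or more. That gene was ZNF92, at 6.66 CPM in set 1 and 14.3 CPM in set 2, a ratio of 2.15 (95% interval 1.23 to 3.81). ZNF449, ZNF182, ZNF684 and ZNF234 followed with ratios of 1.98, 1.87, 1.85 and 1.79. At the low end, ZNF197 had a ratio of 0.492 (0.254 to 0.904), which the pseudocount brings inside 2-fold, and ZNF664, ZNF514, ZNF263 and ZNF239 had 0.524, 0.535, 0.550 and 0.572. With 34 to 107 reads behind these 10 genes, the intervals of ZNF664, ZNF514, ZNF239, ZNF234 and ZNF684 include 1.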

How the data were processed

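Ribosome footprints were measured in 12 libraries. The authors deposited raw counts for each RefSeq coding sequence, and lines for reads outside any feature or without a unique placement (87.5 to 89.5% of reads in HEK293T, 96.2 to 96.5% in H9) stayed out of library sizes. Reads were processed with cutadapt and STAR 2.5.2b on hg19, per the submitters' processing notes. For the counter, its strand setting and the annotation release, the sources used here give nothing. Counts of ZNF genes with near-identical copies or with an overlapping antisense gene are therefore uncertain.

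Of 19305 accessions, 18888 were named through RefSeq's GRCh38.p14 table, used for names and gene order only. Tests used edgeR 4.0.16 under R 4.3.3 (filterByExpr, TMM, estimateDisp, robust glmQLFit, glmQLFTest, Benjamini-Hochberg over all genes tested, threshold 0.05), with 4 summed HEK293T libraries (2 residual degrees of freedom), 8 for the IP label and the interaction, and 4 for H9, and with DESeq2 1.42.0 as an alternative. The code was tested on simulated counts. Standard errors are the log2 change over the square root of F. Ratios have conditional binomial intervals at 95%.

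The members, lists, tests and the rule for named genes were chosen with earlier results of these data known. That rule took all members past the threshold, those of smallest p where none passed, the 6 most extreme each way between lines, the 5 each way between H9 sets, those nearest the CPM threshold and listed genes of known role. Other genes are named after their values were seen. Levels per length and classes by protein domain were not analysed here, and neither was the mRNA-seq.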

Additional observations from a re-analysis of the deposited data

Results flagged for a closer look

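In 4 genes that changed between siRNA labels in HEK293T, the log2 change between shRNA labels had the opposite sign in both H9 sets, though for ZNF318 set 1 was at about 0. By CPM, in H9 set 1, ZNF644 had a log2 change of -0.16, ZNF800 of -0.22 and ZNF318 of -0.01, all 3 having risen in both HEK293T sets. ZNF576, which was lower in both HEK293T sets, had a log2 change of 0.34 in H9 set 1. In H9 set 2 the values were -0.03 for ZNF644, -0.15 for ZNF800, -0.38 for ZNF318 and 0.31 for ZNF576, against a median standard error of 0.31 for a member's change in H9. The difference between the cell lines was not tested, and these 4 were picked from 14 genes. No gene passed between shRNA labels in H9. The share of all genes with opposite signs in the 2 lines is not given here, so the count of 4 has no background.

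Reads outside coding sequences enter none of the comparisons. Among uniquely placed reads of HEK293T, their share under the eIF2A siRNA label was 51.1% in set 1 and 42.3% in set 2, above the control libraries' 40.0 and 35.2%.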

How the results depend on the processing

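The count of ZNF members past the threshold between siRNA labels in HEK293T (14, 7 rising and 7 falling) moved with most settings. It was 2 in the CBP80-labelled libraries of the 8-library fit (1 and 1), 3 in the eIF4E-labelled ones (2 and 1), 2 in DESeq2 (2 rising, 0 falling, 11 falling at an unadjusted p under 0.05), 6 with library sizes alone (0 falling, 8 falling at an unadjusted p under 0.05) and 9 among members of at least 20 CPM (5 and 4). Leaving out one library gave 0 to 19 members, 0 to 10 rising and 0 to 9 falling. The cause was not tested. DESeq2's own filter left 157 members with an adjusted p, while all 232 members were tested in each fit that left out a library. A minimum of 5 CPM, RLE factors, testing without any filter and a mean count minimum of 50 gave 14 to 16. The members' median log2 change moved from 0.01 to 0.0945 with library sizes alone, where all genes shift by 0.09, and the members higher in both sets went from 108 to 67 with TMM sizes.

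With the set number as a replicate block, 36 members passed (19 and 17, against 24.3% of all genes). The set differences of the control and eIF2A labels correlated at 0.28 across genes (0.37 in H9), so libraries of one set did shift together. The labels do not say that a set number marks a shared culture, and 2 sets are too few to settle the pairing, so both counts are given. Over 166 settings of the 14 named genes, 88 kept the call, 78 lost it and none changed sign. No H9 or IP setting gave a member past the threshold. With the block, 7 of 188 members in H9, 6 of 232 between IP labels and 14 of 232 in the interaction had an unadjusted p under 0.05 in edgeR. Over all genes these counts were 493 of 9751, 564 of 11778 and 530 of 11778. Members over 2-fold apart between the lines were 85 to 110 lower and 13 to 19 higher in the alternatives, 2 of which, each set alone, were chosen after seeing the data. The H9 libraries hold fewer reads, and what this does to the shRNA comparison was not tested.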
